A study of Sus scrofa with 36 samples.

Results

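Gene expression in pig hearts was compared between postnatal day 3 (P3) and postnatal day 28 (P28). A gene was tested if 3 or more of the 6 P3 and P28 libraries held 10 or more of its counts, which left 5232 of the 9815 genes in the table of gene counts. The table covers pig chromosomes 1, 6 and 13 and most of chromosome 2, so each gene group below holds only the members that lie there. The hearts came from domestic Yorkshire pigs that were fed normally and received no other treatment, and they were taken on day 1, 3, 7 or 28 after birth, rinsed and frozen. In the batch sequenced by CD Genomics, rRNA-depleted total RNA was sequenced from 12 pigs, 3 of each age. Both sexes were used at each age according to the study's methods, and the sex of each pig is not given in the sources used here. The RNA came from whole hearts according to the study, so that muscle cells and other cells were measured together. The columns of the table name an age and a number from 4 to 6, and the libraries are called by these (P3 library 4 to P28 library 6). P1 and P7 libraries were in the same model and are named only where a level at those ages is given.

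In the weeks after birth the mammalian heart leaves the low-oxygen, low-pressure circulation of the fetus, and its muscle cells largely stop dividing and continue to grow by enlargement. The matrix between the cells is rebuilt by fibroblasts, which in the fetal and newborn heart secrete fibrillins, collagens and the glycoproteins that guide migrating cells. Heart muscle also comes to draw most of its energy from fatty acids in this period, and immune cells of the newborn meet microbes for the first time.

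Counts assigned to genes ranged from 8887176 to 12987113 in the 6 libraries. Values are given as counts scaled to a fixed library size (CPM), adjusted for library composition by the TMM method, and fold changes are log2 differences of P28 from P3 in which a positive value is higher at P28. P3 library 5 stood apart from the other P3 libraries on the second principal component, at -29.37 against 18.78 and 16.69, while the first component, with 52.2% of the variance, separated the ages. The 13 measured markers of heart muscle, ACTC1, TNNC1 and MYBPC3 among them, summed to between 88300 and 110000 CPM at P3 and between 101000 and 117000 CPM at P28. No atrial marker was in the table, so atrial and ventricular tissue could not be told apart. In tissue such as this, fewer cells of a type and less RNA per cell cannot be told apart.

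Between P3 and P28, 919 of the 5232 genes (17.6%) were called at an adjusted p under 0.05 (edgeR's quasi-likelihood test, Benjamini-Hochberg adjustment over all tested genes). Of these, 422 (8.07%) were higher and 497 (9.5%) were lower at P28, and the median over all tested genes was -0.04. At an unadjusted p under 0.05, 1721 genes (32.9%) differed. More than 2-fold changes were found in 176 genes that rose and 256 that fell, and more than 4-fold changes in 61 and 83. The 3 P3 and 3 P28 libraries did not overlap in 1693 genes (32.4%), which included 419 of the 422 higher and 480 of the 497 lower genes. The call was kept in each of the 6 fits that left out 1 P3 or P28 library by 392 genes, 189 higher and 203 lower. Without P28 library 4, 510 genes were called, and without P28 library 6, 569, and 432 genes were called when the 6 libraries were fitted alone.

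**Figure D1:**
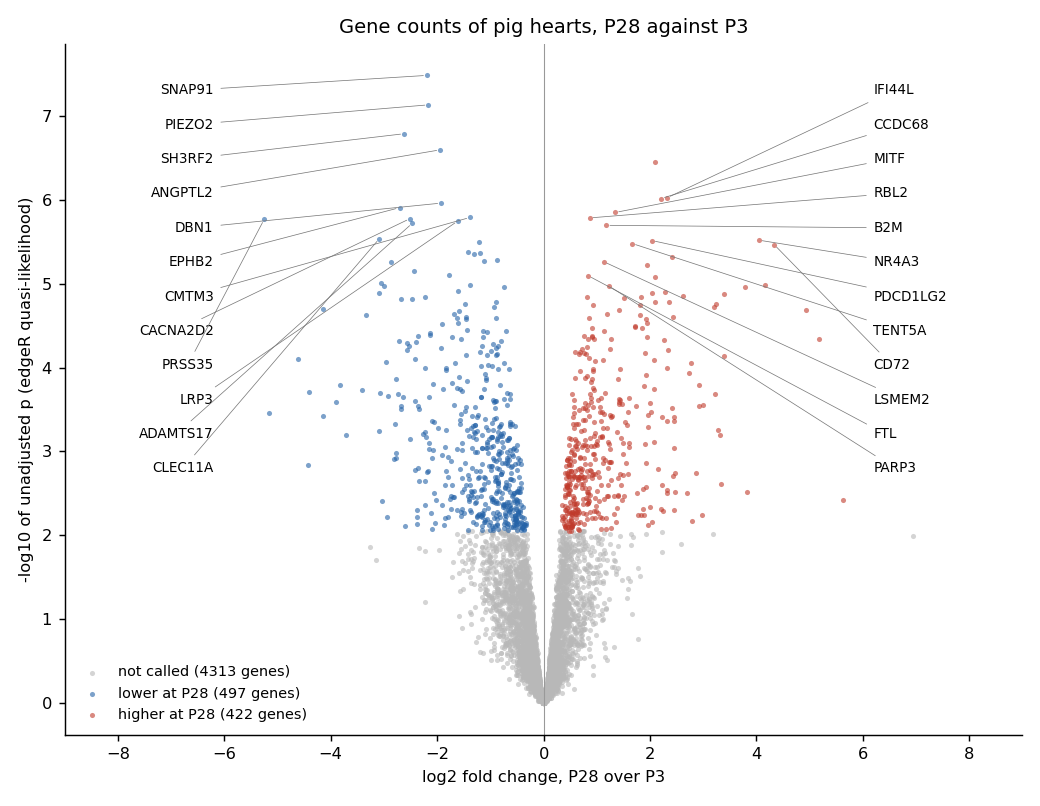
Each point is 1 of the 5232 tested genes, with the log2 fold change of P28 over P3 on the horizontal axis and the negative log10 of the unadjusted p on the vertical axis. Blue points are the 497 genes called lower and red points the 422 called higher at P28, and the named genes are the 12 protein coding genes with the smallest p in each direction whose libraries did not overlap.

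The genes with the smallest p values were lower at P28. SNAP91, which helps to assemble clathrin coats, was at 84.2, 84.8 and 61.2 CPM at P3 and 21.5, 14.6 and 14.2 CPM at P28, so that the lowest P3 library was well above the highest P28 library (log2 fold change -2.19, SE 0.18, adjusted p = 0.000173). PIEZO2, a channel opened by mechanical force, was at 37.4, 46.8 and 56.6 CPM at P3 and 10.6, 11.2 and 9.57 CPM at P28. This was a fall by 2.17 on the log2 scale (SE 0.19, adjusted p = 0.000195), and the P28 libraries were nearly equal to each other. SH3RF2, a protein with a RING domain and SH3 domains, was at 65.4, 59.9 and 84.2 CPM at P3 and 9.24, 9.32 and 15.6 CPM at P28 (log2 fold change -2.62, SE 0.25, adjusted p = 0.000286). The secreted factor ANGPTL2 was at 101, 144 and 97.9 CPM at P3 and 25, 31.5 and 32.6 CPM at P28 (log2 fold change -1.94, SE 0.19, adjusted p = 0.000334). No overlap was a condition of the choice, and in both genes the gap between the ages was wide. DBN1 encodes drebrin, an actin-binding protein, and was at 56.7, 90.4 and 102 CPM at P3 and 17.5, 25.2 and 23 CPM at P28 (log2 fold change -1.92, SE 0.22, adjusted p = 0.000623). The receptor tyrosine kinase EPHB2, a receptor for ephrin-B ligands, was at 32.7, 29 and 40.6 CPM at P3 and 3.58, 5.97 and 6.15 CPM at P28 (log2 fold change -2.71, SE 0.31, adjusted p = 0.000623). In both, each P28 library was less than 0.5 times the lowest P3 library. CMTM3 (log2 fold change -1.38), LRP3 (-1.61), ADAMTS17 (-2.47), CLEC11A (-3.09) and CACNA2D2 (-2.51) completed the lower genes of this group, with adjusted p values of 0.000623, 0.000623, 0.000623, 0.000780 and 0.000623. CACNA2D2 is an auxiliary subunit of voltage-gated calcium channels and ADAMTS17 a secreted metalloprotease. PRSS35, a member of the serine protease family, was at 3.86, 2.78 and 4.3 CPM at P3 and 0, 0.0817 and 0.195 CPM at P28. The P28 libraries held 3 counts in all and the P3 libraries 120, a ratio of 43.8 with an exact 95% interval from 14.6 to 215 that covers counting error only (adjusted p = 0.000623). ANGPTL2 overlaps RALGPS1, which had 0.452 times its counts and a log2 fold change of -0.28.

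The genes with the smallest p among those higher at P28 included IFI44L, B2M and PDCD1LG2, which have roles in immunity. B2M, the light chain of MHC class I molecules, was at 405, 459 and 511 CPM at P3 and 1128, 988 and 1001 CPM at P28 (log2 fold change 1.18, SE 0.14, adjusted p = 0.000623). IFI44L, an interferon-induced gene, was at 43.8, 45.6 and 58 CPM at P3 and 218, 201 and 319 CPM at P28 (log2 fold change 2.32, SE 0.26, adjusted p = 0.000623). PDCD1LG2, which encodes the PD-1 ligand PD-L2, was at 3.86, 3.86 and 3.21 CPM at P3 and 17.4, 12.3 and 15 CPM at P28 (log2 fold change 2.04, SE 0.26, adjusted p = 0.000780). In each of the 3 the lowest P28 library was above the highest P3 library, which the choice of these genes required. PDCD1LG2 overlaps CD274, the gene of the other PD-1 ligand, which had 0.421 times its counts and a log2 fold change of 0.97 with an adjusted p of 0.0559. CD72, a receptor of B cells, was at 0.643, 0.483 and 0.156 CPM at P3 and 14.5, 5.47 and 5.57 CPM at P28 (log2 fold change 4.33, SE 0.55, adjusted p = 0.000780), but it overlaps TESK1, whose counts were 18.5 times as many and differed by 0.07. Without P28 library 4 the log2 fold change of CD72 was 3.71. MITF, a transcription factor, was at 309, 199 and 240.4 CPM at P3 and 733, 624 and 546 CPM at P28 (log2 fold change 1.35, SE 0.16, adjusted p = 0.000623). RBL2 encodes the pocket protein p130, which represses E2F target genes in resting cells, and was at 150.4, 137 and 131 CPM at P3 and 256, 245 and 262 CPM at P28 (log2 fold change 0.87, SE 0.10, adjusted p = 0.000623). TENT5A, a poly(A) polymerase, was at 159, 109 and 88 CPM at P3 and 431, 363 and 334 CPM at P28 (log2 fold change 1.66, SE 0.21, adjusted p = 0.000780). These 3 genes did not overlap between the ages either, by the same choice. FTL, the light chain of the iron store ferritin, was at 584, 648 and 598 CPM at P3 and 991, 1105 and 1171 CPM at P28 (log2 fold change 0.84, SE 0.12, adjusted p = 0.00120). PARP3 (log2 fold change 1.22), CCDC68 (2.21) and LSMEM2 (1.13) were also among the 12, with adjusted p values of 0.00135, 0.000623 and 0.000927. LSMEM2 overlaps IFRD2, which had 1.27 times its counts and fell by 0.42 on the log2 scale. B2M, RBL2 and FTL overlap SPG11, AKTIP and DHDH, which had 0.293, 0.429 and 0.321 times their counts and were not called. The nuclear receptor NR4A3, also among the 12, is described with the immediate early genes below.

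Each of these 24 genes kept its call when any 1 of the 6 libraries was left out, with adjusted p values up to 0.00572 for the higher and 0.00406 for the lower genes.

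Changes were then described over 20 lists of genes with a known role, which had between 4 and 27 tested members each. No test of a list was made. The count of called members of every list below stands against the 8.07% of all tested genes that were higher and the 9.5% that were lower, and a share near these is no result about the list.

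**Figure D2:**
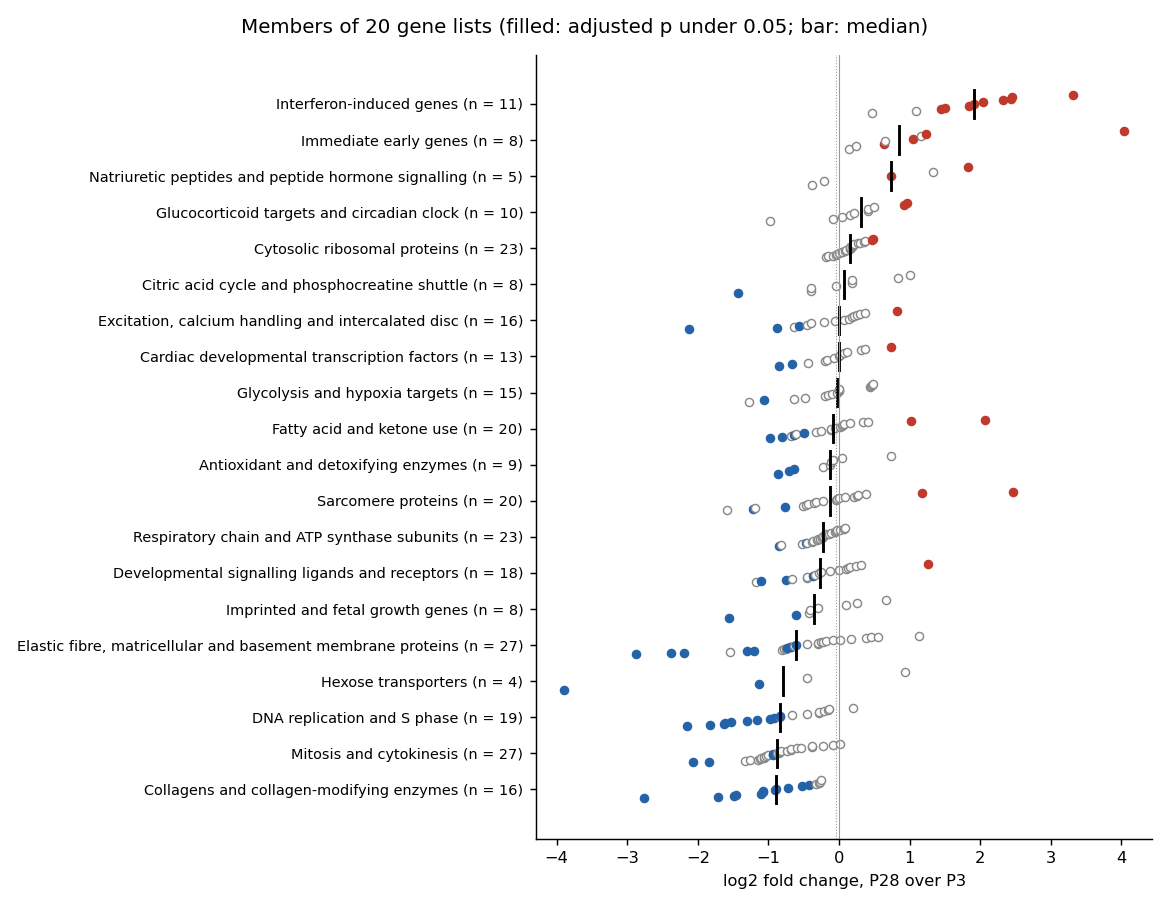
Each circle is a tested member of 1 of 20 gene lists, placed by its log2 fold change of P28 over P3, and filled where the adjusted p was under 0.05 (blue lower, red higher at P28). The bar is the median of the list and the dotted line the median of all genes, and the bar of the interferon-induced genes, at 1.92, lies farthest to the right while those of collagens, mitosis and DNA replication lie farthest to the left.

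Collagens and the enzymes that modify them were lower at P28. Of 16 tested members, 12 fell and none rose, against 9.5% of all tested genes that fell, and the median log2 fold change was -0.90. COL8A1, a short-chain collagen of vessel walls and valves, was at 278, 221 and 143 CPM at P3 and 72.1, 67.1 and 55.4 CPM at P28 (log2 fold change -1.72, SE 0.28, adjusted p = 0.00228). COL12A1, which decorates the surface of collagen fibrils, was at 336, 394 and 508 CPM at P3 and 188, 211 and 189 CPM at P28 (log2 fold change -1.07, SE 0.20, adjusted p = 0.00421). In both genes the libraries of the 2 ages were clearly apart. COL27A1, a fibril-forming collagen, fell by 1.45 on the log2 scale (SE 0.25, adjusted p = 0.00280) and COL6A6 by 1.08 (SE 0.25, adjusted p = 0.0123, and 0.0547 without P28 library 4). ADAMTS2 cleaves the N-terminal propeptide from fibrillar procollagens and was at 182, 277 and 198 CPM at P3 and 95.1, 107 and 101 CPM at P28 (log2 fold change -1.11, SE 0.15, adjusted p = 0.000927). PLOD1, a lysyl hydroxylase, was at 303, 343 and 328 CPM at P3 and 166, 167 and 188 CPM at P28 (log2 fold change -0.90, SE 0.13, adjusted p = 0.00151). The P28 libraries of both enzymes lay within a narrow range under every P3 library. COL8A2, the partner chain of COL8A1, was at 1.65, 1.21 and 1.95 CPM at P3 and 0, 0.409 and 0.293 CPM at P28 (log2 fold change -2.77, SE 0.67, adjusted p = 0.0146), with a log2 fold change of -2.16 without P28 library 4. COL5A1, which sets the diameter of collagen fibrils, was at 502, 2294 and 844 CPM at P3 and 360.0, 458 and 477 CPM at P28, with P3 library 5 far above the other libraries (log2 fold change -1.49, SE 0.40, adjusted p = 0.0244), and its call was lost in 4 of the 6 fits without 1 library. Without P3 library 5 the log2 fold change of COL5A1 was -0.64 and the adjusted p 0.0538. The falls of COL16A1, COL18A1, CRTAP and COL15A1 were between 0.43 and 0.89 on the log2 scale, and their calls were also lost without P3 library 5, with adjusted p values of 0.062, 0.067, 0.0641 and 0.086. Over the 6 fits that left out 1 library, between 7 (without P3 library 5, P28 library 4 or P28 library 6) and 11 members were called lower, 6 members in every fit. The 4 members not called were P3H1, P3H2, COL6A1 and COL6A5, with log2 fold changes from -0.32 to -0.26.

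Elastic fibre, matricellular and basement membrane genes were lower in 9 of 27 tested members, against 9.5% of all tested genes, and higher in none, with a median log2 fold change of -0.61. Without P3 library 5 the median was -0.21. FBN1, the main fibrillin of microfibrils, was at 1875, 2648 and 2779 CPM at P3 and 947, 1186 and 1051 CPM at P28 (log2 fold change -1.20, SE 0.16, adjusted p = 0.000887). MFAP2, a glycoprotein of the same microfibrils, was at 16.1, 37.3 and 25.1 CPM at P3 and 8.84, 11.5 and 11.4 CPM at P28 (log2 fold change -1.30, SE 0.28, adjusted p = 0.00976). No P28 library reached a P3 library in either gene. LAMA1, the laminin alpha chain of early basement membranes, was at 11.6, 14.7 and 25.3 CPM at P3 and 1.75, 1.47 and 3.91 CPM at P28 (log2 fold change -2.87, SE 0.38, adjusted p = 0.000927). TNC encodes tenascin C, a glycoprotein of developing and injured tissue, and was at 58.9, 252 and 152 CPM at P3 and 47.1, 27 and 26.6 CPM at P28 (log2 fold change -2.20, SE 0.56, adjusted p = 0.0186). TNC varied more than 4-fold among the P3 libraries, and without P3 library 5 its adjusted p was 0.0614. The hyaluronan-binding proteoglycan VCAN was at 774, 480.0 and 650.0 CPM at P3 and 381, 401 and 395 CPM at P28 (log2 fold change -0.69, SE 0.17, adjusted p = 0.0150), and its call was lost without P28 library 4 (adjusted p = 0.0535). HAPLN1, which links hyaluronan to such proteoglycans, fell by 2.38 on the log2 scale (SE 0.70, adjusted p = 0.0356). Its log2 fold change ranged from -3.15 to -1.88 over the fits without 1 library. MMP15, FBLN2 and THBS2 fell by 0.73, 0.61 and 0.68, with adjusted p values of 0.0371, 0.0343 and 0.0455. The calls of these 3 and of HAPLN1 were each lost in 4 or 5 of the 6 fits without 1 library, with adjusted p values up to 0.132 (MMP15 without P28 library 4), whereas FBN1, LAMA1 and MFAP2 were called in all 6. Over those fits between 4 (without P28 library 4) and 12 (without P3 library 4) members were called lower. Not all matrix genes were lower. LAMB2, at 3187, 4175 and 2751 CPM at P3 and 2484, 3169 and 2956 CPM at P28, and LAMA4, at 1623, 1479 and 1492 CPM at P3 and 1337, 1392 and 1299.8 CPM at P28, were not called (adjusted p = 0.330 and 0.217). The matricellular genes CCN2 and THBS1 had log2 fold changes of 1.14 and 0.55 that were not called either (adjusted p = 0.175 and 0.231).

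Markers of the cells that make or border this matrix were few on these chromosomes. TCF21, a transcription factor of fibroblasts, was at 30.9, 37.4 and 38.5 CPM at P3 and 18, 18.9 and 22.2 CPM at P28 (log2 fold change -0.86, SE 0.14, adjusted p = 0.00256), while the other measured fibroblast marker, GSN, had a log2 fold change of -0.02 (adjusted p = 0.967). Of 3 markers of smooth muscle cells and pericytes, PDGFRB (log2 fold change -1.01, SE 0.31, adjusted p = 0.0428) and MYLK (log2 fold change -0.51, SE 0.16, adjusted p = 0.0423) fell. Their calls were lost in 3 and 4 of the 6 fits without 1 library, with a log2 fold change of -0.57 for PDGFRB without P3 library 5 (adjusted p = 0.152) and of -0.43 for MYLK without P28 library 4 (adjusted p = 0.143). NOTCH3 was at 154, 602 and 248 CPM at P3 and 86.4, 156 and 202 CPM at P28 and was not called (adjusted p = 0.0716). The summed level of the 3 ranged from 526 to 1310 CPM at P3 and from 278 to 534 CPM at P28. UPK1B, the measured marker of epicardium, was at 7.72, 3.86 and 7.9 CPM at P3 and 3.03, 1.47 and 2.05 CPM at P28 (log2 fold change -1.58, SE 0.39, adjusted p = 0.0178), and its call was lost in 3 of the 6 fits without 1 library, with an adjusted p of 0.0643 without P28 library 5. The part of these cell types in the lower matrix genes was not tested.

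**Figure D3:**
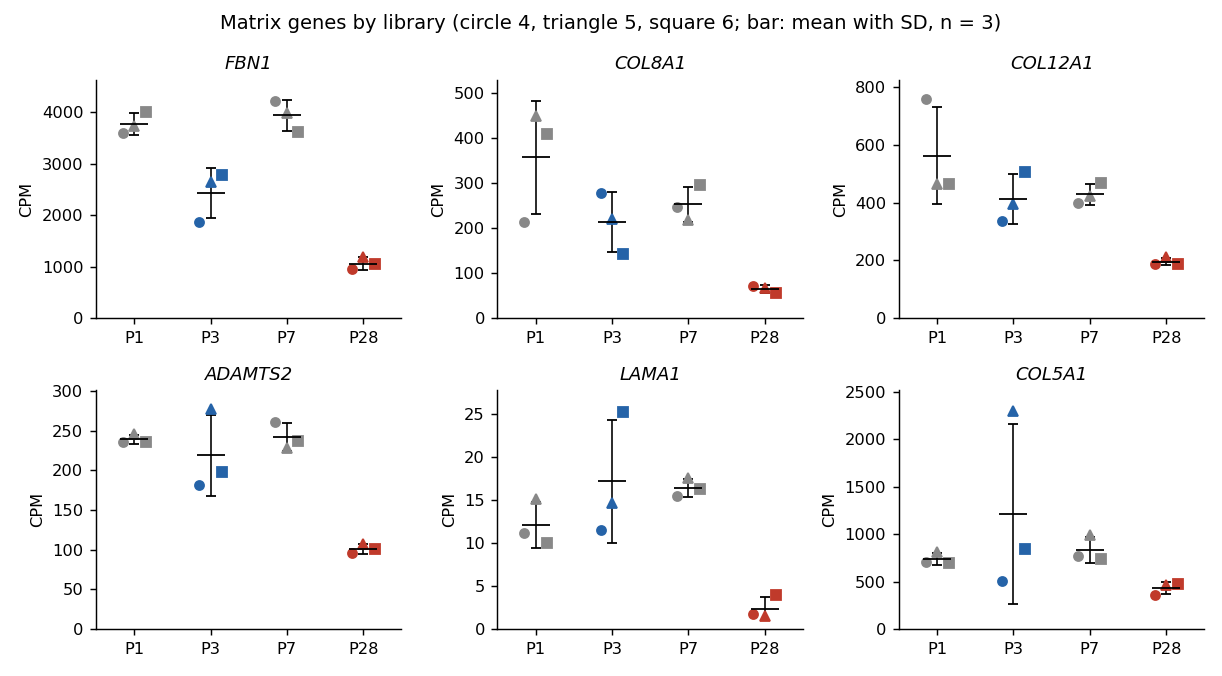
CPM of 6 matrix genes in each of the 12 libraries, by age, with the mean and the SD of 3 libraries. In FBN1, COL8A1, COL12A1, ADAMTS2 and LAMA1 the P28 libraries (red) lie under all P3 libraries (blue), and in COL5A1 the P3 library 5 (triangle) lies far above the others.

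Genes of DNA replication were lower at P28 than at P3 in 10 of 19 tested members, against 9.5% of all tested genes, and none was higher, with a median log2 fold change of -0.83. Without P3 library 6 the median was -0.53. CHAF1B and CHAF1A, subunits of the chromatin assembly factor that loads histones behind the replication fork, were the members with the smallest p. CHAF1B was at 11.8, 13 and 17.1 CPM at P3 and 4.22, 5.39 and 4.1 CPM at P28 (log2 fold change -1.61, SE 0.23, adjusted p = 0.00143). CHAF1A was at 17.5, 21.4 and 35.1 CPM at P3 and 7.25, 12.5 and 5.76 CPM at P28 (log2 fold change -1.53, SE 0.29, adjusted p = 0.00536). Both were lower in every P28 library than in any P3 library. ORC1, the largest subunit of the origin recognition complex, was at 12, 11.9 and 31.6 CPM at P3 and 4.94, 7.6 and 3.03 CPM at P28 (log2 fold change -1.83, SE 0.40, adjusted p = 0.00951), and without P3 library 6 its log2 fold change was -1.20. CDT1, which loads the MCM helicase at origins, was at 5.14, 19.9 and 20.6 CPM at P3 and 1.83, 5.88 and 2.44 CPM at P28 (log2 fold change -2.16, SE 0.50, adjusted p = 0.0126), and its P3 library 4 was under its P28 library 5. MCM2, a subunit of that helicase, was at 68.1, 75.9 and 109 CPM at P3 and 34.3, 59.2 and 19.9 CPM at P28 (log2 fold change -1.16, SE 0.31, adjusted p = 0.0245). It overlaps TPRA1, which had 0.796 times its counts. GINS2, POLA2, LIG1, FEN1 and E2F2 fell by between 0.83 and 1.64 on the log2 scale, with adjusted p values from 0.0101 to 0.0352. GINS2 overlaps COX4I1, a respiratory chain gene with 137 times its counts and a log2 fold change of 0.01. CHAF1B, CHAF1A, ORC1 and GINS2 were called in each fit without 1 library, in which the count of lower members ranged from 4 (without P28 library 4) to 12 (without P3 library 4). The others lost their call in some of these fits, with adjusted p values of 0.0535 for CDT1 and 0.0836 for MCM2 without P28 library 4 and of 0.14 for E2F2 without P3 library 6.

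Genes of mitosis and cytokinesis had a median log2 fold change of -0.88, with 4 of the 27 tested gene IDs called lower, beside 9.5% of all tested genes, and none higher. The median depended on single libraries and was -0.245 without P3 library 6 and -1.34 without P28 library 5. KIF15, a spindle motor, was at 19.7, 27.8 and 68 CPM at P3 and 8.52, 12.2 and 6.74 CPM at P28 (log2 fold change -2.07, SE 0.39, adjusted p = 0.00474), and it overlaps KIAA1143, which had 0.494 times its counts and was not called. CDCA8, a subunit of the chromosomal passenger complex, was at 9.46, 13.4 and 29.9 CPM at P3 and 4.3, 8.42 and 1.95 CPM at P28 (log2 fold change -1.84, SE 0.46, adjusted p = 0.0182). The other 2 IDs are both named CDC25C, a phosphatase that starts mitosis, and overlap each other with nearly equal counts, so that they may share reads (log2 fold change -0.94, SE 0.23, adjusted p = 0.0146 for 1 of them). P3 libraries differed widely in these genes, with P3 library 6 the highest in each of the 3. BUB1B, a spindle checkpoint kinase, was at 26.2, 27.5 and 70.8 CPM at P3 and 17.6, 36.1 and 15.2 CPM at P28 and was not called (adjusted p = 0.147). Without P3 library 6 CDCA8 had an adjusted p of 0.076, without P28 library 6 CDC25C had one of 0.0563, and over the fits without 1 library the count of lower IDs ranged from 1 (without P3 library 6, P28 library 4 or P28 library 6) to 14 (without P28 library 5). KIF15 was called in each of them, with a log2 fold change of -1.37 without P3 library 6. That of CDCA8 was -1.20 there.

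The level at P7 placed these changes in time. P7 was tested against the midpoint of P3 and P28 on the log2 scale, where a departure from 0 shows that the log2 change differed between the 2 intervals. P7 is nearer in time to P3 than to P28, so a steady change per day also gives a departure, towards the P3 level. The P7 level departed in 446 genes (8.52%), 317 above (6.06%) and 129 below (2.47%) the midpoint, and without P7 library 5 in 154 above and 23 below. All 27 mitosis IDs and 16 of the 19 replication genes were above it at P7, with median departures of 2.04 and 1.31. BUB1B was at 147, 186 and 153 CPM at P7, above every P3 and P28 library, with a departure of 2.39 (SE 0.32, adjusted p = 0.00125). KIF15 was at 71.3, 85.9 and 68.9 CPM at P7, with a departure of 2.00 (SE 0.31, adjusted p = 0.00220). CHAF1A was at 49.7, 59.7 and 49.1 CPM at P7, with a departure of 1.86 (SE 0.23, adjusted p = 0.00101). From P3 to P7, 9 mitosis IDs and 5 replication genes rose (same test), against 1.61% of all tested genes, with medians of 1.50 and 0.98 over the lists. From P7 to P28 all 27 IDs and 18 of the 19 genes fell, against 10.9% of all tested genes, with medians of -2.62 and -1.74. At P1 BUB1B was at 34.3, 50.1 and 50.5 CPM. These comparisons share the P3, P7 and P28 libraries with the main comparison, so they are not independent of it.

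Departures from the midpoint were not limited to the cell cycle. A steady change per day also puts P7 above the midpoint in genes that fall and below it in genes that rise. The counts that follow therefore do not show an uneven rate. Among the 497 genes lower at P28, 122 (24.5%) were above the midpoint at P7 and 2 (0.402%) were below, and among the 422 higher genes 32 (7.58%) were below and 7 (1.66%) above. The median log2 change of the lower genes was -0.17 from P3 to P7 and -0.89 from P7 to P28, and that of the higher genes was 0.20 and 0.65. In the second interval, which is the longer, 297 of the lower and 235 of the higher genes were called in the same direction, and in the first 12 and 14. Over all tested genes 1008 (19.3%) were called in the second interval and 116 (2.22%) in the first. FBN1 had the smallest p of this test. It was at 4222, 3977 and 3619 CPM at P7, above all P3 libraries and more than 3 times every P28 library (departure 1.29, SE 0.13, adjusted p = 0.000581). CCDC80, a secreted matrix protein, was at 119, 148 and 179 CPM at P3, 303, 259.6 and 319 CPM at P7 and 102, 78.8 and 80.3 CPM at P28 (departure 1.37, SE 0.14, adjusted p = 0.000581). GXYLT2, an enzyme that adds xylose to Notch, departed by 1.26 (SE 0.14, adjusted p = 0.000655). ADAMTS17 departed by 1.82 (SE 0.23, adjusted p = 0.00101) and the gene ID named GNG12 by 0.84 (SE 0.10, adjusted p = 0.000897). The symbol is that of a G protein subunit, but the table types this ID as a long noncoding RNA, and it overlaps 5 other genes. These 5 were highest at P7 among these 3 ages before they fell. Below the midpoint, NR4A3 was at 22.7, 21.6 and 42.2 CPM at P7, within the range of the P3 libraries (departure -2.28, SE 0.44, adjusted p = 0.00731). CISH, an inhibitor of cytokine signalling, was at 159, 164 and 158 CPM at P3, 74.9, 108 and 101 CPM at P7 and 366, 240.2 and 298 CPM at P28, a departure of -1.21 (SE 0.15, adjusted p = 0.00105), so that it was lowest at P7. HRH1, a histamine receptor, departed by -0.67 (SE 0.12, adjusted p = 0.00486). ITIH3 and ITIH1, inter-alpha-trypsin inhibitor heavy chains that bind hyaluronan, overlap each other and NEK4, which had 4.38 times the counts of ITIH3 and a log2 fold change of 0.27 between P3 and P28. ITIH3 was at 4.32, 11.7 and 6.1 CPM at P3, 5.78, 2.68 and 2.45 CPM at P7 and 73.1, 50.4 and 76.7 CPM at P28, a departure of -2.61 (SE 0.46, adjusted p = 0.00400). RNF223 was lower at both P7 and P28 than at P3, at 29.9, 44.5 and 36.1 CPM at P3, 18.7, 16.7 and 15.3 CPM at P7 and 21.8, 24.8 and 22.1 CPM at P28, but it overlaps a gene with 0.963 times its counts, and the call between P3 and P28 was lost without P28 library 4 (adjusted p = 0.0541).

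**Figure D4:**
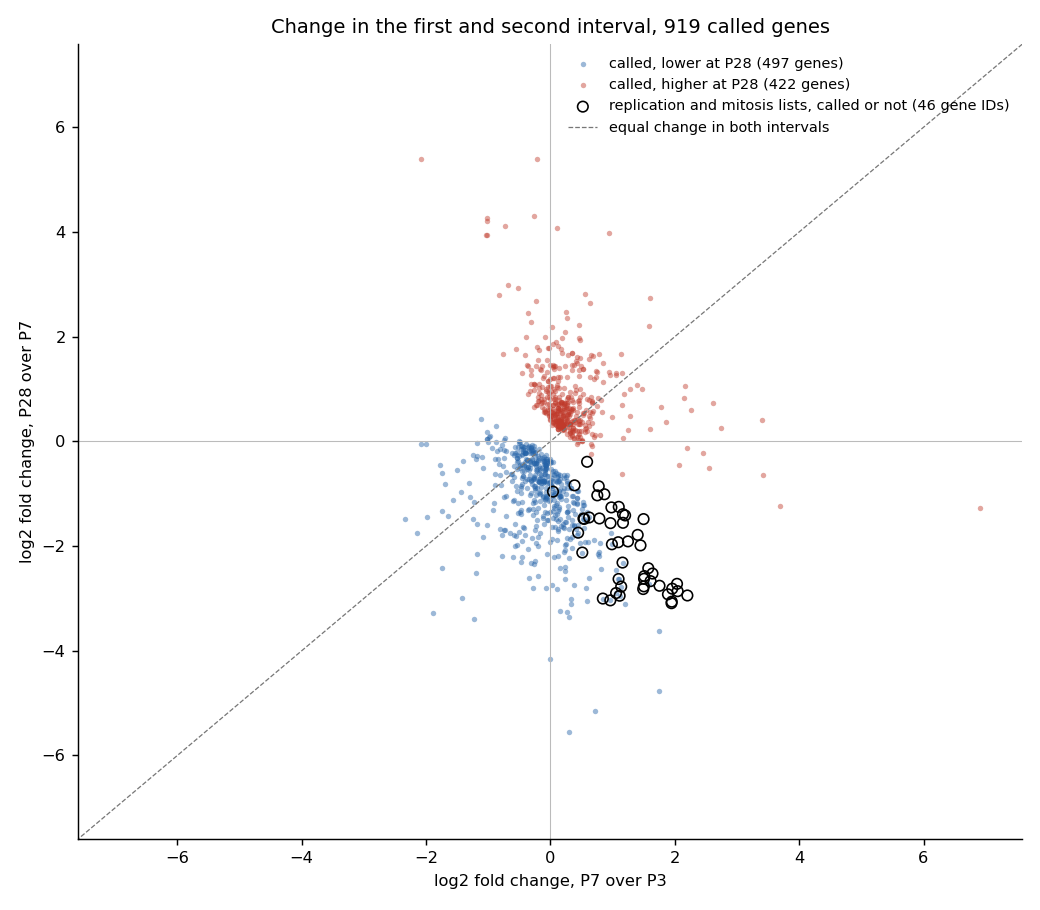
Log2 fold change from P3 to P7 (horizontal) against that from P7 to P28 (vertical) for the 919 called genes, blue lower and red higher at P28. Open circles are the 46 gene IDs of the replication and mitosis lists, called or not, which lie to the right of 0 and below it, that is, up to P7 and down after it, and the dashed line marks equal changes.

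Interferon-induced genes had the highest median of the 20 lists. Of 11 tested members 9 were called higher and none lower, against 8.07% of all tested genes that were higher, and that median log2 fold change was 1.92. IFI6, a mitochondrial protein induced by type I interferon, was at 52.4, 93.9 and 117 CPM at P3 and 442, 496 and 487 CPM at P28 (log2 fold change 2.44, SE 0.38, adjusted p = 0.00176). ISG15, a ubiquitin-like modifier, was at 9.28, 27.6 and 29.9 CPM at P3 and 121, 94.2 and 149 CPM at P28 (log2 fold change 2.45, SE 0.51, adjusted p = 0.00779). MX1, a GTPase that blocks viral replication, was at 20.6, 47.9 and 66.5 CPM at P3 and 182, 129 and 199 CPM at P28 (log2 fold change 1.92, SE 0.51, adjusted p = 0.0234). In each of the 3 every P28 library was above every P3 library. IFI44 was at 30.7, 31 and 39.3 CPM at P3 and 156, 114 and 146 CPM at P28 (log2 fold change 2.04, SE 0.29, adjusted p = 0.00143). DTX3L and PARP9 encode a ubiquitin ligase and its partner ADP-ribosyltransferase. DTX3L was at 32.5, 31.6 and 31.7 CPM at P3 and 97, 61 and 102 CPM at P28 (log2 fold change 1.44, SE 0.26, adjusted p = 0.00356) and PARP9 rose by 1.50 (SE 0.22, adjusted p = 0.00147). PARP9 overlaps KPNA1, which had 8.05 times its counts and rose by 0.78. PARP14 rose by 1.84 (SE 0.29, adjusted p = 0.00208), and HSPBAP1, which overlaps it with 0.278 times its counts, was not called. ISG20, an exonuclease, rose from at most 4 counts in a P3 library (log2 fold change 3.32, SE 0.73, adjusted p = 0.0103). MX2, at 92, 197 and 139 CPM at P3 and 366, 194 and 354 CPM at P28, and BST2, at 25.2, 60 and 51.4 CPM at P3 and 50.6, 53 and 84.1 CPM at P28, were not called (adjusted p = 0.0576 and 0.339). All but MX1 of the 9 kept their call without any 1 library, and MX1 had an adjusted p of 0.064 without P28 library 6. Over the 9 genes the median log2 change was 0.06 from P3 to P7 and 1.63 from P7 to P28. All 9 were called higher in the second interval, against 8.33% of all tested genes, and 0 in the first, against 1.61%. P7 departed from the midpoint in 2 of the 9, so an equal log2 change in both intervals was not excluded for the others. At P1 IFI6 was at 171, 179 and 271 CPM, above every P3 library and under every P28 library.

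Markers of macrophages moved in the same direction. The 3 chains of complement C1q, which tissue macrophages secrete, were higher at P28. C1QC was at 139, 143 and 131 CPM at P3 and 353, 219 and 212 CPM at P28 (log2 fold change 0.92, SE 0.22, adjusted p = 0.0136). C1QB rose by 0.90 (SE 0.23, adjusted p = 0.0201) and C1QA by 0.83 (SE 0.23, adjusted p = 0.0259). P28 library 4 was the highest in all 3 chains, and without it their adjusted p values were 0.0574, 0.0876 and 0.113. CSF1R, the receptor for the macrophage growth factor CSF1, was at 105, 166 and 85.8 CPM at P3 and 224, 170.3 and 163 CPM at P28 and was not called (adjusted p = 0.0629). MS4A7, LYVE1 and CD14 were not called either, and the summed level of the 7 measured markers ranged from 460 to 593 CPM at P3 and from 734 to 1160 CPM at P28. Of 3 lymphocyte markers CD5 rose (log2 fold change 1.86, SE 0.55, adjusted p = 0.0350), to at most 3.42 CPM. Without P28 library 4 its log2 fold change was 1.02 and its adjusted p 0.173. CD79A had a log2 fold change of -0.06, but it overlaps a gene with 2.17 times its counts. The neutrophil marker CSF3R was at 2.3, 3.86 and 2.5 CPM at P3 and 6.85, 4.33 and 2.64 CPM at P28 and was not called (adjusted p = 0.263). The erythroid marker EPB42, a membrane protein of red cells, went the other way, at 6.61, 8.93 and 5.71 CPM at P3 and 0.557, 1.63 and 1.37 CPM at P28 (log2 fold change -2.57, SE 0.44, adjusted p = 0.00268). The part of these cells in the higher immune genes was not tested.

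**Figure D5:**
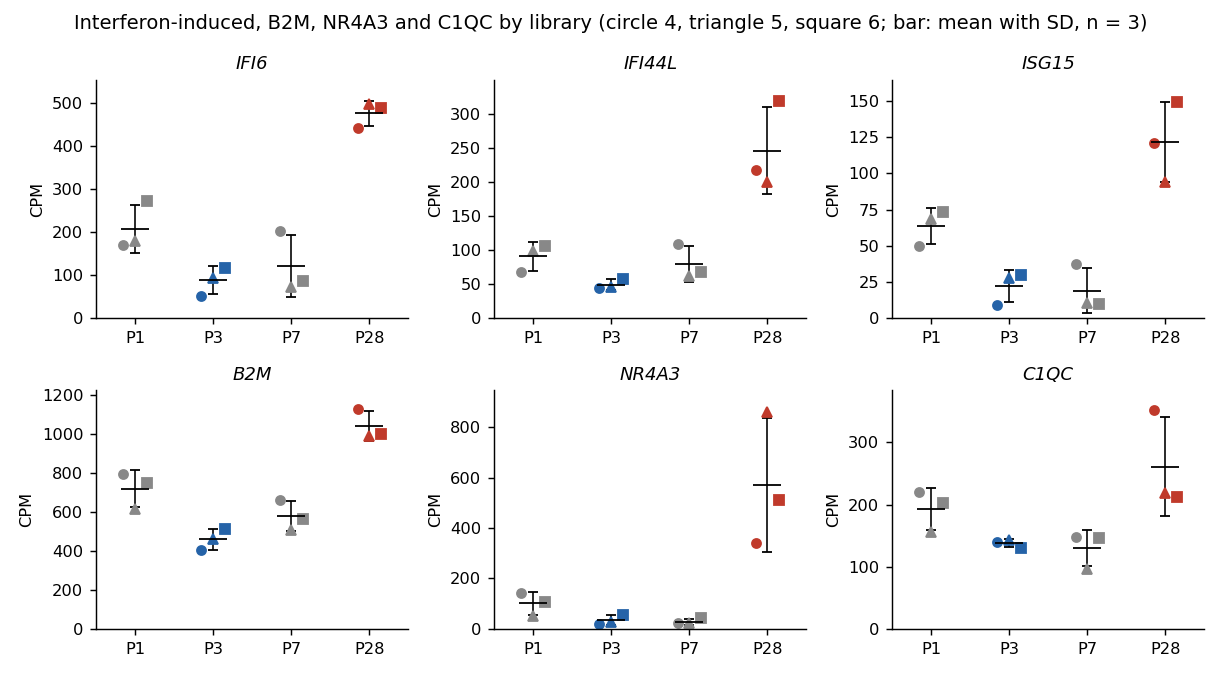
CPM of 6 genes that rose, in each of the 12 libraries, by age, with the mean and the SD of 3 libraries. The P28 libraries (red) lie above all P3 libraries (blue) in IFI6, IFI44L, ISG15, B2M, NR4A3 and C1QC, and for the first 4 the P1 libraries lie between the 2.

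Immediate early genes, which are induced within minutes of a stimulus, were higher at P28 in 4 of 8 tested members, against 8.07% of all tested genes, and lower in none. The median was 0.85, and 0.535 without P28 library 5, when 2 members were called. NR4A3, an orphan nuclear receptor, was at 18.6, 29.1 and 55.6 CPM at P3 and 339.9, 858 and 513 CPM at P28 (log2 fold change 4.04, SE 0.51, adjusted p = 0.000780). JUN and JUNB are subunits of the AP-1 transcription factor. JUN, which the table types as a pseudogene, was at 151, 424 and 286 CPM at P3 and 551, 804 and 657 CPM at P28 (log2 fold change 1.23, SE 0.30, adjusted p = 0.0158) and JUNB at 22.9, 20.8 and 29.9 CPM at P3 and 61.2, 48.1 and 43.4 CPM at P28 (log2 fold change 1.05, SE 0.22, adjusted p = 0.00717). None of these 3 overlapped between the ages. ZFP36, which marks AU-rich mRNAs for decay, rose by 0.63 (SE 0.18, adjusted p = 0.0309), but it overlaps PAF1, which had 2.03 times its counts, and its call was lost in 5 of the 6 fits without 1 library (adjusted p = 0.103 without P28 library 5). JUN was called in all but the fit without P28 library 5 (adjusted p = 0.053). EGR1, at 18.7, 29.9 and 49.5 CPM at P3 and 50.9, 59.3 and 43.7 CPM at P28, was not called (adjusted p = 0.136), nor were FOSB, KLF2 and KLF4. All 4 called members rose between P7 and P28.

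Of the clock and glucocorticoid target genes, 2 of 10 were higher, against 8.07% of all tested genes. RORA, a nuclear receptor that activates clock genes, was at 58.2, 81.2 and 53.5 CPM at P3 and 124, 114 and 127 CPM at P28 (log2 fold change 0.92, SE 0.18, adjusted p = 0.00513). ARNTL, the clock activator BMAL1, was at 26.6, 31 and 30.1 CPM at P3 and 71.3, 40.2 and 59 CPM at P28 (log2 fold change 0.96, SE 0.27, adjusted p = 0.0283), and its call was lost in 4 of the 6 fits without 1 library (adjusted p = 0.11 without P28 library 4). The clock repressor NR1D2 was at 433, 398 and 298 CPM at P3 and 593, 453 and 457 CPM at P28 and was not called (adjusted p = 0.0697).

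Genes of peptide hormone signalling were higher in 2 of 5 members, against 8.07% of all tested genes. MME, the peptidase neprilysin that degrades natriuretic peptides, was at 15.7, 21.8 and 23.8 CPM at P3 and 87.5, 84.8 and 46.2 CPM at P28 (log2 fold change 1.83, SE 0.27, adjusted p = 0.00146). AGTR1, the angiotensin II receptor, was at 39.5, 30.3 and 40.9 CPM at P3 and 59.4, 72.3 and 52.7 CPM at P28 (log2 fold change 0.73, SE 0.19, adjusted p = 0.0198), and without P28 library 5 its adjusted p was 0.0762. NPPB, the natriuretic peptide of strained heart muscle, was at 166, 187 and 758 CPM at P3 and 876, 1316 and 598 CPM at P28. Its P3 library 6 overlapped the P28 range, and NPPB was not called (log2 fold change 1.33, SE 1.01, adjusted p = 0.378). The levels of NPPB differed more within P3 than those of MME or AGTR1.

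Among fatty acid and ketone genes, 2 of 20 rose and 4 fell, against 8.07% and 9.5% of all tested genes, with a median of -0.09 that ranged from -0.20 to -0.01 without 1 library. Without P3 library 4, 7 were called lower. BDH1, which interconverts the ketone bodies, was at 31.1, 86.5 and 45.4 CPM at P3 and 262, 207 and 215 CPM at P28 (log2 fold change 2.07, SE 0.36, adjusted p = 0.00308). BCKDHB, a subunit of the dehydrogenase of branched-chain keto acids, was at 61.6, 47.8 and 83.7 CPM at P3 and 119.6, 129.8 and 144 CPM at P28 (log2 fold change 1.02, SE 0.20, adjusted p = 0.00606). Neither overlapped between the ages. CPT2 and SLC25A20 act in the carnitine shuttle that brings long-chain fatty acids into mitochondria, and both fell. CPT2 was at 135, 196 and 165 CPM at P3 and 84.8, 72.3 and 93.7 CPM at P28 (log2 fold change -0.98, SE 0.17, adjusted p = 0.00276). SLC25A20 was at 264, 243 and 239 CPM at P3 and 141, 121 and 166 CPM at P28 (log2 fold change -0.80, SE 0.13, adjusted p = 0.00237). Every P28 library of the 2 genes was under every P3 library. ETFB fell by 0.64 on the log2 scale and SLC27A4 by 0.49 (adjusted p = 0.00872 and 0.0180), but they overlap CLDND2 and COQ4, which had 1.01 and 1.24 times their counts, and SLC27A4 had an adjusted p of 0.0718 without P28 library 4. FABP3, the fatty acid binding protein of heart muscle, was at 1382, 1304 and 2423 CPM at P3 and 1821, 1786 and 1697 CPM at P28 and was not called (adjusted p = 0.889), and ACADM, which oxidises medium-chain fatty acids, had a log2 fold change of 0.35 (adjusted p = 0.409).

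Of 4 hexose transporters 2 fell, against 9.5% of all tested genes. SLC2A5, a fructose transporter, was at 1.65, 3.98 and 1.41 CPM at P3 and 0.159, 0.163 and 0.0977 CPM at P28 (adjusted p = 0.00618). Its summed counts of 69 at P3 and 5 at P28 gave a ratio of 15.1 with an exact 95% interval from 6.17 to 48 that covers counting error only. At P1 SLC2A5 had been at 82.9, 29.8 and 28.5 CPM. SLC2A8 was at 21.1, 19.2 and 19.9 CPM at P3 and 7.8, 11.4 and 8.3 CPM at P28 (log2 fold change -1.13, SE 0.19, adjusted p = 0.00228). Among 15 glycolysis and hypoxia genes PFKL, the liver form of phosphofructokinase, was the only one called, at 365, 670.4 and 531 CPM at P3 and 240.0, 239 and 272 CPM at P28 (log2 fold change -1.06, SE 0.24, adjusted p = 0.0118). It was at 297, 284 and 239 CPM at P7, and the log2 difference was -0.93 from P3 to P7 and -0.12 from P7 to P28. ENO1, at 308, 389 and 601 CPM at P3 and 277, 299.6 and 256 CPM at P28, and LDHB, at 498, 496 and 728 CPM at P3 and 711, 839.9 and 814 CPM at P28, were not called (adjusted p = 0.0906 and 0.0729), and HIF1A had a log2 fold change of -0.01. In the citric acid cycle group 1 of 8 members was called, the malic enzyme ME1, at 20.4, 16.7 and 14.5 CPM at P3 and 8.04, 4.66 and 6.35 CPM at P28 (log2 fold change -1.43, SE 0.27, adjusted p = 0.00441). CKM, the creatine kinase of muscle, was at 2548, 6918 and 8399 CPM at P3 and 10894, 12124 and 12868 CPM at P28, without overlap, and its adjusted p was 0.0541. Of 23 subunits of the respiratory chain and ATP synthase, COX8A (log2 fold change -0.85, SE 0.15, adjusted p = 0.00356) and UQCR11 (log2 fold change -0.46, SE 0.14, adjusted p = 0.0435) fell and none rose, a share of lower genes near the 9.5% of all tested genes, with a median of -0.23. Without P3 library 6 the median was -0.10 and 1 subunit was called, and 7 were called without P3 library 4. UQCR11 lost its call in 4 of the 6 fits without 1 library (adjusted p = 0.131 without P28 library 4), and it overlaps MBD3, which had 0.358 times its counts. ATP5F1A, the alpha subunit of ATP synthase, was at 5587, 5813 and 8367 CPM at P3 and 5460.2, 5281 and 4520.0 CPM at P28 and was not called (adjusted p = 0.117).

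Most genes of the contractile apparatus were not called. Of 20 sarcomere genes 2 rose and 2 fell, shares near the 8.07% and 9.5% of all tested genes. MYOT, a protein of the Z disc, was at 72.9, 119.8 and 126 CPM at P3 and 971, 468 and 314 CPM at P28 (log2 fold change 2.46, SE 0.57, adjusted p = 0.0122), and XIRP1, a protein of the intercalated disc that the table types as a pseudogene, was at 723, 1569 and 900.4 CPM at P3 and 3485, 2116 and 1605 CPM at P28 (log2 fold change 1.17, SE 0.36, adjusted p = 0.0395). In both, P28 library 4 was the highest, and without it the adjusted p was 0.0525 and 0.167. TPM4, a tropomyosin of non-muscle and embryonic muscle cells, was at 436, 256 and 851 CPM at P3 and 213, 232 and 221 CPM at P28 (log2 fold change -1.22, SE 0.31, adjusted p = 0.0198). TMOD2, which caps actin filaments, fell by 0.76 on the log2 scale (SE 0.22, adjusted p = 0.0323). The calls of TPM4 and TMOD2 were each lost in 4 of the 6 fits without 1 library. TPM4, highest in P3 library 6, had a log2 fold change of -0.64 without that library (adjusted p = 0.055) and of -1.19 without P28 library 4 (adjusted p = 0.0666). TMOD2 had one of -0.56 without P3 library 6 (adjusted p = 0.111), and both genes were negative in all 6 fits. Other genes of the thin and thick filaments were not called. TNNC1 was at 8875, 7212 and 10263 CPM at P3 and 13592, 10851 and 9937 CPM at P28, ACTC1 at 20409, 18598 and 19288 CPM at P3 and 13925, 17972 and 10913 CPM at P28 and MYBPC3, a thick filament gene, at 15255, 21470.0 and 16357 CPM at P3 and 21668, 20659 and 21639 CPM at P28. They differed by 0.38, -0.45 and 0.27 on the log2 scale (adjusted p = 0.112, 0.0972 and 0.210). TNNT1, the slow skeletal troponin T, was at 86.8, 212 and 379 CPM at P3 and 106, 98.2 and 92 CPM at P28 and was not called (adjusted p = 0.0983).

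Among 16 genes of excitation, calcium handling and the intercalated disc, 1 rose and 3 fell, against 8.07% and 9.5% of all tested genes. KCNE1, the beta subunit of the channel for the slow delayed rectifier current, was at 58.5, 56.4 and 52.6 CPM at P3 and 131, 88.9 and 76.1 CPM at P28 (log2 fold change 0.82, SE 0.19, adjusted p = 0.0121). CALM3, 1 of the calmodulin genes, was at 664, 783 and 759.6 CPM at P3 and 379.8, 449.5 and 373 CPM at P28 (log2 fold change -0.88, SE 0.12, adjusted p = 0.000927). Both were separated between the ages. BVES, which binds cAMP in the membrane of muscle cells, fell by 0.57 on the log2 scale (SE 0.17, adjusted p = 0.0402) and lost its call in 5 of the 6 fits without 1 library (adjusted p = 0.131 without P28 library 6). GJA1, the gap junction protein connexin 43, was at 2789, 2282 and 2933 CPM at P3 and 3395, 3237 and 2599 CPM at P28 and was not called (adjusted p = 0.343).

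Transcription factors and signalling genes of heart development were mostly not called. Of 13 transcription factors TCF21 and TBX18 fell and GATA6 rose, against 9.5% and 8.07% of all tested genes. TBX18, a factor of the epicardium and sinus node, was at 68.4, 57 and 72.6 CPM at P3 and 43.9, 44.5 and 36.6 CPM at P28 (log2 fold change -0.66, SE 0.15, adjusted p = 0.0111). GATA6 was at 377, 567 and 520.2 CPM at P3 and 897, 785 and 753 CPM at P28 (log2 fold change 0.74, SE 0.21, adjusted p = 0.0288), and its call was lost in 5 of the 6 fits without 1 library (adjusted p = 0.0936 without P28 library 4). TEAD1, a factor of the Hippo pathway, was at 458, 491 and 453 CPM at P3 and 559, 410.4 and 447 CPM at P28 and was not called (adjusted p = 0.958). Of 18 ligands and receptors of developmental signalling, 1 rose and 3 fell. WLS carries Wnt proteins to the cell surface and was at 54.4, 51.3 and 52.6 CPM at P3 and 31, 30.8 and 32.1 CPM at P28 (log2 fold change -0.75, SE 0.11, adjusted p = 0.00135). ROR1, a receptor for Wnt5a, was at 104, 68.2 and 84.3 CPM at P3 and 283, 174 and 156 CPM at P28 (log2 fold change 1.25, SE 0.31, adjusted p = 0.0158). The libraries of both genes did not overlap, although ROR1 lost its call without P28 library 4 (adjusted p = 0.0688). HEYL, a target of Notch, fell by 1.11 on the log2 scale, and without P3 library 5 its adjusted p was 0.0631. TGFBR2, a receptor for TGF-beta, fell by 0.36 (adjusted p = 0.0450) and lost its call in 5 of the 6 fits without 1 library (adjusted p = 0.139 without P28 library 4). Of 8 imprinted and fetal growth genes, IGF2BP2 (log2 fold change -0.61, SE 0.16, adjusted p = 0.0188) and MAGEL2 (log2 fold change -1.56, SE 0.46, adjusted p = 0.0365) fell, each with a call lost in 3 of the 6 fits without 1 library (adjusted p = 0.0596 for IGF2BP2 without P28 library 4 and 0.0758 for MAGEL2 without P3 library 6). IGF2BP2 overlaps a gene with 0.329 times its counts.

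The 23 cytosolic ribosomal protein genes had a median of 0.16, between 0.06 without P3 library 5 and 0.25 without P3 library 6, with 2 higher, a share near the 8.07% of all tested genes, and none lower. RPL24 rose and was at 759.7, 587 and 709.6 CPM at P3 and 954, 953 and 955 CPM at P28 (log2 fold change 0.48, SE 0.12, adjusted p = 0.0160). Of 9 antioxidant genes 3 fell, against 9.5% of all tested genes, and none rose. GPX7, a peroxidase of the endoplasmic reticulum, fell by 0.87 (SE 0.20, adjusted p = 0.0111), PRDX1, a peroxiredoxin, by 0.72 and the selenoprotein SELENOW by 0.64 (adjusted p = 0.0234 and 0.0143). PRDX1 overlaps AKR1A1, which had 0.5 times its counts and fell as well, and it lost its call in 4 of the 6 fits without 1 library, SELENOW in 2 of them. Without P28 library 4 their adjusted p values were 0.0738 and 0.0615.

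Endothelial markers went in both directions. TEK, the angiopoietin receptor Tie2, was at 214, 152 and 155 CPM at P3 and 349, 299 and 268 CPM at P28 (log2 fold change 0.81, SE 0.15, adjusted p = 0.00413). TIE1, its partner receptor, was at 121, 221 and 133 CPM at P3 and 76.5, 95.7 and 93.7 CPM at P28 (log2 fold change -0.84, SE 0.20, adjusted p = 0.0150). The 2 receptors were separated between the ages in opposite directions, and TIE1 lost its call without P28 library 4 (adjusted p = 0.0635). PLVAP and CDH5 had log2 fold changes of -0.74 and -0.63 and were not called (adjusted p = 0.111 and 0.116), and ERG, a transcription factor of endothelial cells, had one of 0.01.

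Of 496 long noncoding RNA genes tested, 46 were higher and 32 lower, beside 351 higher and 454 lower of 4431 protein coding genes, and against 8.07% higher and 9.5% lower of all tested genes. Long noncoding RNA genes took 2.96% to 3.97% of the counts of a library at P3 and 4.27% to 5.36% at P28. Of the 4 with the smallest p in each direction none has a symbol in the table. ENSSSCG00000051238 lies on chromosome 2 from 150745634 to 150756245 (Sscrofa11.1) and was at 129, 108 and 81.8 CPM at P3 and 525, 375 and 454 CPM at P28 (log2 fold change 2.09, SE 0.22, adjusted p = 0.000378), which was the smallest p of all genes that rose. It was at 256, 247 and 217 CPM at P7, between the other 2 ages in every library. ENSSSCG00000048519, on chromosome 13 from 46300113 to 46302658, was at 2.11, 2.29 and 0.313 CPM at P3 and 14, 12.3 and 21.6 CPM at P28 (log2 fold change 3.38, SE 0.49, adjusted p = 0.00143). Both rose without overlap. ENSSSCG00000041694 on chromosome 2 rose by 2.41 and ENSSSCG00000042842 on chromosome 1 by 2.09 (adjusted p = 0.000927 and 0.00122). Among those that fell, ENSSSCG00000047115, on chromosome 2 from 130520823 to 130570762, was at 17.3, 12.6 and 16.8 CPM at P3 and 0.637, 0.735 and 1.27 CPM at P28 (log2 fold change -4.15, SE 0.63, adjusted p = 0.00162). ENSSSCG00000042732, on chromosome 2 from 25148212 to 25163416, fell by 1.15 (SE 0.18, adjusted p = 0.00216) without overlap. ENSSSCG00000046835 fell by 3.34 on the log2 scale (adjusted p = 0.00173). ENSSSCG00000041075, on chromosome 6, had 53 counts at P3 and 2 at P28 (adjusted p = 0.00303). The ratio was 29, with an exact 95% interval from 7.64 to 246 that covers counting error only. Its log2 fold change ranged from -7.31 to -4.09 over the fits without 1 library. All 8 kept their call without any 1 library. Small nucleolar RNA genes, which guide the chemical modification of rRNA, were higher in 9 and lower in none of 104 tested, a share of higher genes near the 8.07% of all tested genes. Of these 9, 8 overlap a gene with as many counts or more, as do 84 of the 104.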

How the data were processed

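Gene counts of the 6 P3 and P28 libraries of the CD Genomics batch were analysed together with those of the 6 P1 and P7 libraries of the same batch. As deposited by the authors, the values are counts of reads in each gene, neither normalized nor filtered. Per the submitters' processing notes, STAR 2.7.9a and MultiQC 1.11 were used. The counting program, its strand setting and its treatment of overlapping genes are not given in the sources used here. Of genes with a symbol that also had a RefSeq position, 99.9% of 4355 lay at that position in Sscrofa11.1, whereas the labels name Sscrofa10.2, so gene positions are given in Sscrofa11.1. Genes that overlap may have been counted on the same reads, and 1190 of the 5232 tested genes overlapped a gene with as many counts or more, 168 of the 919 called genes among them. Symbols were taken from the table and, for 283 genes, from a table of gene names. 4326 genes had none. The table covers 4 chromosomes, and 1 line without counts was left out. Tables of circRNA and miRNA counts were not used here.

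Genes with at least 10 counts in 3 of the 6 libraries were tested in R 4.3.3 with edgeR 4.0.16 (quasi-likelihood test, TMM normalization, all 12 libraries in 1 fit), with Benjamini-Hochberg adjustment over all 5232 genes and a threshold of 0.05. P7 was tested against the midpoint of P3 and P28 in the same fit. The coefficient of variation between libraries of an age was 0.209 at the common dispersion of 0.0435. In data simulated for the comparison of P3 with P28 over 5147 genes, the test called 55.1% of genes changed by 1 on the log2 scale, 87.8% of those changed by 2 and 0.0808% of unchanged genes. In the simulation 4952 genes were unchanged, so a smaller share differed than was called in the data, and no library was made to stand apart. The shares found may therefore differ from those of the real comparison. Totals of counts per library ranged from 8887176 to 12987113. Genes named Metazoa_SRP, which are copies of a small structural RNA, took 13.6% to 16.2% of these at P3 and 7.88% to 12% at P28, without overlap, and the part of this in the results was not tested beyond the fit without small structural RNAs.

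Named genes were the 12 coding genes with the smallest p in each direction whose libraries did not overlap, called members of the lists in order of fold change, 4 lncRNA genes in each direction and 6 genes in each direction of the P7 test. Members of a list beyond the sixth, and members given as not called, were chosen after their values were seen. The comparison, the genes and the lists were chosen with earlier results of these data known. The alternatives tried were another normalization (size factors of DESeq2, or small structural RNAs left out), another test (DESeq2 1.42.0, limma 3.58.1 with voom), other filters (none, 50 counts, or all 12 libraries), the 6 libraries alone, the number in the column name as a block, the threshold and leaving out each library. Replicates are separate pigs. The numbers 4 to 6 are used here only as names of the libraries, since the labels number them 1 to 3. What they stand for is not given in the sources used here. Ratios of summed counts have exact 95% intervals, which cover counting error only and not the spread between pigs. Figures were made with matplotlib 3.10.9 (Python 3.11.15). Values of some single genes are not reported here.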

Additional observations from a re-analysis of the deposited data

How the results depend on the processing

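The count of 919 genes that differed between P3 and P28 (422 higher, 497 lower) stayed within 1.5 times under DESeq2's size factors, DESeq2's test, limma voom, every filter and without the small structural RNAs. With the 6 libraries alone it was 432 (219 higher, 213 lower), where interferon-induced genes had 9 higher, collagens 7 lower and replication genes 4 lower. In that fit 1 mitosis ID was called lower. No sarcomere, antioxidant or imprinted gene was called lower there, and no ribosomal protein gene higher. Leaving out 1 P3, P7 or P28 library gave 510 to 1187 genes, 237 to 521 higher and 273 to 666 lower, the fewest without P28 library 4 and the most without P3 library 4. At an unadjusted p up to 0.05 and a log2 change of more than 0.5 either way, 1272 genes were called (526 higher, 746 lower), and with an adjusted p under 0.05 and a change over 1, 432 were called (176 higher, 256 lower). For P7 against the midpoint (446 genes, 317 above, 129 below), DESeq2's test called 701 genes, 287 below, the looser threshold 811, 344 below, and the stricter one 196, 155 above and 41 below. Leaving out 1 library gave 177 to 647, 154 to 404 above and 23 to 285 below. The cause of these differences was not tested. With the number in the column name as a block, 875 genes differed (415 higher, 460 lower). The deviations of same-numbered P3 and P28 libraries correlated at 0.02, -0.05 and -0.19, which gave no sign that the numbers pair the samples. With 3 libraries at each age this cannot exclude a pairing. Of the 108 named gene IDs, 57 kept direction and side of the threshold under each of the 20 alternatives that tested them, and 69 under the 18 other than those 2 thresholds. The threshold with a change over 1 ended 35 calls, and 0 IDs changed sign. The simulated share found for a log2 change of 1, 55.1%, shows that smaller changes can be missed with 3 pigs at each age, and genes under 10 counts were not measured well enough to test.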

Other observations

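Genes whose symbols share a stem were also counted, in the 30 stems with 12 or more tested members. These groups were chosen after their values were seen, a stem is a name and not a function, and no test was made of them. Surface antigens with CD symbols had 8 members higher and 2 lower of 19 (52.6% called, against 17.6% of all genes). Without P28 library 4, 4 of these 10 calls were kept. CD5 had 7, 3 and 6 counts at P3 and CD72 at most 0.643 CPM, so both passed the filter of 10 counts through P28 alone. Such genes are tested only if they are higher at P28, which can raise the share called. CD86, a ligand that co-stimulates T cells, was at 6.15, 5.67 and 7.04 CPM at P3 and 25.3, 15 and 12.5 CPM at P28 (log2 fold change 1.48, SE 0.30, adjusted p = 0.00651). CD22, an inhibitory receptor of B cells, was at 4.04, 2.41 and 2.58 CPM at P3 and 14.8, 9.15 and 9.96 CPM at P28 (log2 fold change 1.90, SE 0.33, adjusted p = 0.00276). Every P28 library of the 2 genes was above every P3 library. CD80, the other ligand of this kind, rose by 1.04 (adjusted p = 0.0304), but its call was lost in 3 of the 6 fits without 1 library, with an adjusted p of 0.127 without P28 library 4, the library in which CD5 was also highest. CD226, CD37 and CD72 overlap RTTN, TEAD2 and TESK1, which had 55.2, 108 and 18.5 times their counts. CD109, a membrane protein that binds TGF-beta, was at 65.6, 63.7 and 122 CPM at P3 and 25.9, 31.1 and 34 CPM at P28 (log2 fold change -1.47, SE 0.23, adjusted p = 0.00176). CD248, a marker of pericytes and fibroblasts, was at 9.46, 29 and 15.9 CPM at P3 and 3.82, 6.37 and 4.79 CPM at P28 (log2 fold change -1.85, SE 0.43, adjusted p = 0.0121), and without P28 library 4 its adjusted p was 0.0535.

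Solute carriers were lower in 13 and higher in 5 of 78 tested members (23.1% called, against 17.6% of all genes). Of all genes 9.5% were lower and 8.07% higher. Without P28 library 5, 12 members were called (15.4%, against 12.3% of all genes in that fit). Without P28 library 6, 10 were called (12.8%, against 10.9%), and without P3 library 5 the share was 21.8%, against 19.5%. These shares are near those of all genes and are no result about the stem. SLC7A5, which carries large neutral amino acids, was at 25.9, 23.7 and 51.8 CPM at P3 and 5.49, 7.35 and 5.37 CPM at P28 (log2 fold change -2.48, SE 0.36, adjusted p = 0.00147). SLC35C1, which carries GDP-fucose into the Golgi, was at 25.2, 27.2 and 28.1 CPM at P3 and 16.7, 13.2 and 13.9 CPM at P28 (log2 fold change -0.88, SE 0.15, adjusted p = 0.00280). The 2 genes fell without overlap and kept the call without any 1 library. SLC22A16, a carnitine transporter, was at 4.5, 7.97 and 4.14 CPM at P3 and 29.6, 21.9 and 17.5 CPM at P28 (log2 fold change 2.07, SE 0.40, adjusted p = 0.00517). SLC25A33, a carrier of pyrimidine nucleotides in mitochondria, was at 9.09, 7.84 and 12.6 CPM at P3 and 32.1, 24.4 and 24.3 CPM at P28 (log2 fold change 1.44, SE 0.28, adjusted p = 0.00606). Both rose without overlap.

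Translation initiation factors with EIF symbols were higher in 5 and lower in none of 14 tested members (35.7%, against 8.07% of all genes that were higher). EIF2A was at 195, 153 and 191 CPM at P3 and 249, 247 and 274 CPM at P28 (log2 fold change 0.51, SE 0.12, adjusted p = 0.0109), with each P28 library above the P3 libraries. EIF4E3, EIF3J, EIF1B and EIF4A2 rose by 0.62, 0.66, 0.47 and 0.51, and each of these calls was lost without P28 library 4, with adjusted p values of 0.0717, 0.0843, 0.141 and 0.108, so that 1 of the 5 calls was kept in that fit. The share called there was 7.14%, under the 9.75% of all genes. Without P28 library 5, P28 library 6, P3 library 5 or P3 library 6, 3 members were called higher, and without P3 library 5, 1 was called lower. The share was 28.6% without P3 library 5, against 19.5% of all genes. It was 21.4% without P28 library 5, P28 library 6 or P3 library 6, against 12.3%, 10.9% and 13.1% of all genes. EIF3J overlaps SPG11, which had 1.17 times its counts.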
